A study of Mus musculus with 18 samples.

Results

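Targets of p53 were followed in cultured mouse neurospheres, floating clusters of neural progenitors, and in cells differentiated from them for 4 days. The set holds 10 genes (Cdkn1a, Plk2, Eda2r, Fas, Mdm2, Ccng1, Trp53inp1, Bax, Bbc3 and Phlda3), and a member was taken when a probe set carried its symbol and no other. This gave 9 members of 22180 genes with a single symbol, each with 1 probe set, and all 9 lay above the filter on low values on 18 of 18 arrays. Bax was not analysed here.

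Total RNA was measured on 18 Affymetrix mouse gene arrays in 6 groups of 3. The groups were mosaic cultures (wild type and Pcdh19 knockout cells grown as a mix) at day 4 and day 0, Pcdh19 knockout cultures at day 4 and day 0, and wild type cultures at day 4 and day 0. All were labelled female, and day 0 stands for the undifferentiated neurosphere. The design calls the 3 samples of a group technical replicates, so p-values measured only the spread between them. The share of each genotype in a mosaic culture, the deleted part of Pcdh19 and the number of animals are stated in none of the sources used here.

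p53 is a transcription factor that is held at a low level by the ubiquitin ligase Mdm2 and is stabilised when DNA is damaged or the cell is under stress. It then switches on genes that stop the cell cycle, repair DNA or start apoptosis, and Mdm2 itself, which closes a feedback loop. In neural progenitors the pathway is known for restraining proliferation and self-renewal. Several of its targets answer to other signals too. Plk2, for example, is also an immediate early gene that serum and neuronal activity induce.

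Pcdh19 itself was read first as a check of the labels. Its log2 value was 5.53 to 5.86 in knockout arrays at day 4 and 5.39 to 5.68 at day 0, against 6.81 to 6.98 and 6.66 to 6.85 in wild type arrays. Knockout and wild type arrays did not overlap on either day, although limma's adjusted p was 0.195 at day 4 and 0.855 at day 0. Mosaic arrays ran from 5.52 to 7.09 at day 4 and from 5.65 to 6.31 at day 0. At day 4 replicate 3 lay below every knockout array and replicate 2 above every wild type array. Pcdh19 therefore does not check the labels of single mosaic arrays. A probe set outside the deleted part would check nothing, and whether this one lies inside it is not known. Arrays of the same group correlated at a Pearson's r of 0.981 to 0.986 across probe sets, and arrays of different groups at 0.955 to 0.987. The ranges overlap, so these correlations do not check the labels.

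Promoter windows of the members were searched for the p53 decamer consensus, the 10-base unit of which a p53 response element holds a pair. The windows come from RefSeq on mouse build GRCm38.p6 and run from 250 bases before to 50 bases after an annotated start. They covered 9 of the 10 genes with 12 windows, of which 4 windows from 4 genes (Cdkn1a, Mdm2, Ccng1 and Bax) held a match. Of all 32851 windows of the same length 8.36% held one. The decamer reads the same on both strands, so 1 search covered both. Cdkn1a is printed because it held a pair of decamers at a spacing of at most 13 bases, which 24 of all windows (0.0731%) did. Mdm2 and Ccng1 are printed because they were measured and each held 1 decamer, as did Bax, whose window is left out because its RNA was not analysed here, and Plk2 because it fell on differentiation with no match in its window. Capitals mark the decamer matches.
Cdkn1a, chr17:29090729-29091028, plus strand: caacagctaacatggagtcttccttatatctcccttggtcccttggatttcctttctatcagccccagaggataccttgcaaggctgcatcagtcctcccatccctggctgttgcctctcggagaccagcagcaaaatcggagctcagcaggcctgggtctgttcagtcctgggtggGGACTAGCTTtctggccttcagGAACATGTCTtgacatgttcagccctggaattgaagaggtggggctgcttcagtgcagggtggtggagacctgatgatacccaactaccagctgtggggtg
Mdm2, chr10:117710709-117711008, minus strand: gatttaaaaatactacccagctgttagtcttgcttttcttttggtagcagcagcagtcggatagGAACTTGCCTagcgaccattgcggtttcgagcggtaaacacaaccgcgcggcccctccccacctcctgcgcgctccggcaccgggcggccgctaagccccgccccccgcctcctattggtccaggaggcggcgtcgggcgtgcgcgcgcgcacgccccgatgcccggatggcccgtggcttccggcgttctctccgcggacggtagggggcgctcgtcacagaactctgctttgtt
Ccng1, chr11:40755237-40755536, minus strand: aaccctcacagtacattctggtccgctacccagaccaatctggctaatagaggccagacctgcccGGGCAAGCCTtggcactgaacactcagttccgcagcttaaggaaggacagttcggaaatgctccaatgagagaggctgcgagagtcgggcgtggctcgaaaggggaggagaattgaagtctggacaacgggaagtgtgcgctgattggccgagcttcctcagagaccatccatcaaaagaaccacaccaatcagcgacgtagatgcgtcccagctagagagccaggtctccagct
Plk2, chr13:110394794-110395093, plus strand: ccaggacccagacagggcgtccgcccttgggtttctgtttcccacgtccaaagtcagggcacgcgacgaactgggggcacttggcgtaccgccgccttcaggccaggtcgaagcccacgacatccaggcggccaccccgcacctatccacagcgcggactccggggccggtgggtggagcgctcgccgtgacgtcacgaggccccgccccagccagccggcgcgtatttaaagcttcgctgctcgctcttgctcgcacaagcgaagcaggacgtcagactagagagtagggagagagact
The Cdkn1a window belongs to the more upstream of its annotated starts, and its decamers begin at GGACTAGCTT, 73 bases before that start. The window of the downstream start held none. In the upstream window the 10 bases straight after GAACATGTCT miss the consensus only at their opening base, and are unmarked. Which of these stretches p53 binds was not tested. In Mdm2 the match GAACTTGCCT began 186 bases before the start, and in Ccng1 the match GGGCAAGCCT began 185 bases before it. No match says only that these letters are not in the window.

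On differentiation, 4 of the 9 members fell in mosaic, 5 in knockout and 6 in wild type cultures, and 2 passed as higher in wild type cultures alone. Cdkn1a, the inhibitor p21 of cyclin-dependent kinases, Plk2, a polo-like kinase, Eda2r, a receptor of the tumour necrosis factor family, and Trp53inp1 fell in each genotype. Fas fell in knockout and wild type cultures and Mdm2 in wild type cultures, where Bbc3 and Phlda3 rose. Over all 19016 genes tested 11.9% were lower and 14.4% higher at day 4 in mosaic cultures, 12.4% lower and 15.0% higher in knockout cultures, and 16.3% lower and 17.2% higher in wild type cultures. In wild type cultures 51.4% of all called genes were higher, which became 61.5% after quantile normalization and 44.7% with array medians aligned. The 4 members that fell in all 3 genotypes compare with 8.93% of all genes. The median log2 fold change of the 9 members was -0.36 in mosaic, -0.65 in knockout and -0.64 in wild type cultures, against 0.02, 0.02 and 0.09 over all genes. A gene passed at an adjusted p under 0.05 in limma, with the adjustment over all genes tested. The arrays measure bulk RNA, in which fewer cells of a type and less RNA per cell cannot be told apart.

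**Figure D1:**
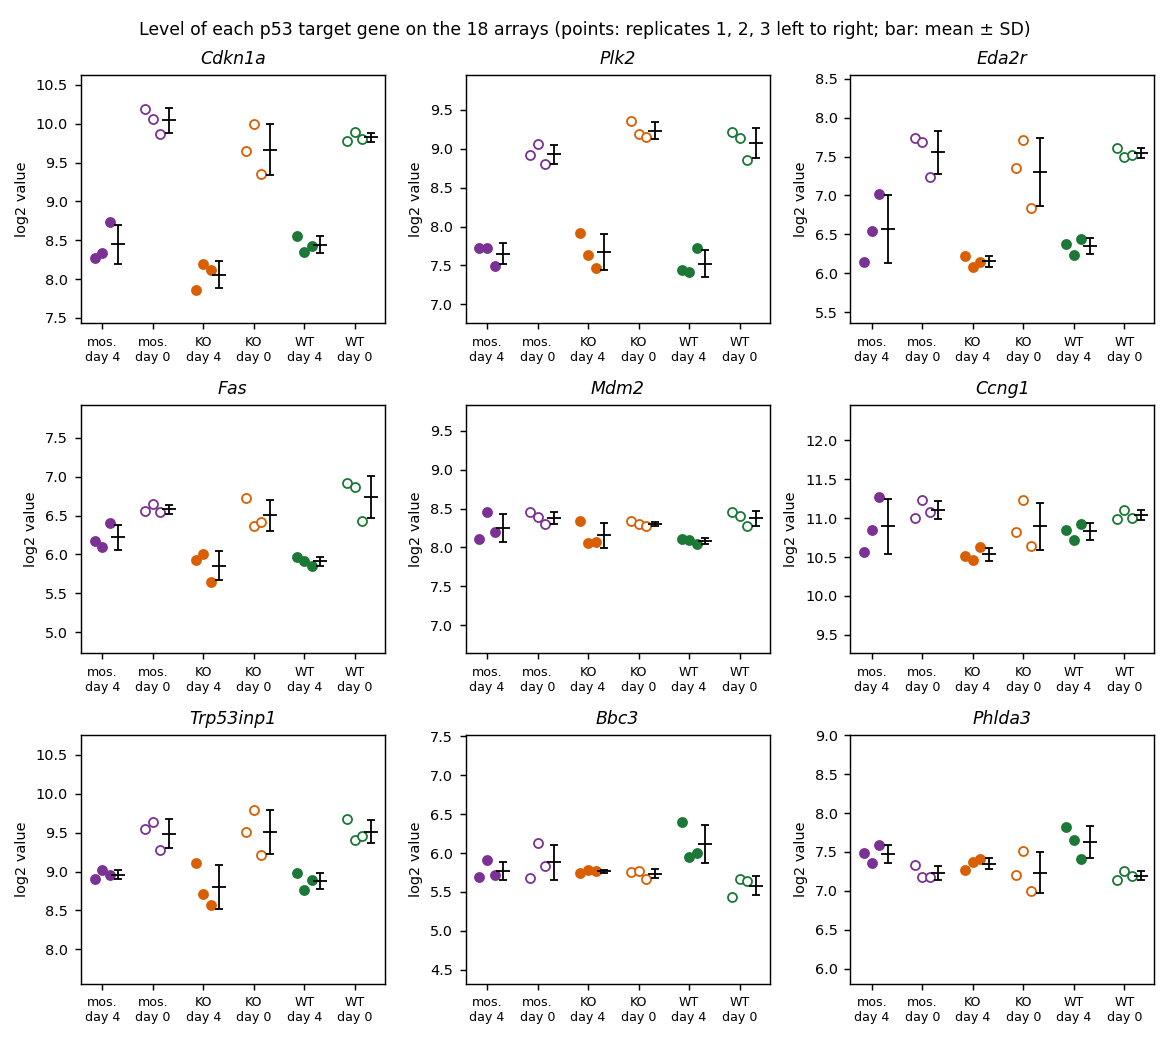
Log2 expression value of each of the 9 p53 target genes on every array, in mosaic (mos.), knockout (KO) and wild type (WT) cultures at day 4 (filled) and day 0 (open), with the 3 replicates as points and mean ± SD as a black bar. Each panel spans the same number of log2 units, and day 4 points of Cdkn1a, Plk2 and Eda2r lie below the day 0 points of their own genotype.

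Among genes of cell cycle arrest, Cdkn1a had log2 values of 8.27, 8.34 and 8.73 at day 4 in mosaic cultures, against 10.19, 10.06 and 9.87 at day 0. In knockout cultures it had 7.86, 8.20 and 8.11 at day 4, against 9.65, 10.0001 and 9.35 at day 0. Wild type cultures gave 8.56, 8.35 and 8.42 at day 4, against 9.77, 9.89 and 9.81 at day 0. The days were far apart in each genotype, and the highest day 4 array of all, mosaic replicate 3, stayed below the lowest day 0 array, knockout replicate 3. Its log2 fold change was -1.59 ± 0.15 (SE) in mosaic, -1.61 ± 0.15 in knockout and -1.38 ± 0.15 in wild type cultures, with adjusted p = 8.04e-07, 6.95e-07 and 3.62e-06. This is a level 3.02-fold, 3.05-fold and 2.60-fold lower at day 4.

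Plk2 measured 7.72, 7.73 and 7.49 at day 4 in mosaic cultures, against 8.92, 9.06 and 8.81 at day 0. The knockout values were 7.92, 7.64 and 7.46 at day 4, against 9.36, 9.18 and 9.15 at day 0. The wild type values were 7.44, 7.42 and 7.72 at day 4, against 9.22, 9.15 and 8.86 at day 0. Every day 4 array lay below every day 0 array, and the change had the smallest adjusted p of the 9 members in wild type and knockout cultures. Its log2 fold change was -1.28 ± 0.13, -1.56 ± 0.13 and -1.55 ± 0.13 in mosaic, knockout and wild type cultures (adjusted p = 1.46e-06, 1.79e-07 and 2.12e-07), or 2.43-fold, 2.95-fold and 2.93-fold lower at day 4.

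Ccng1, which encodes cyclin G1, a partner of protein phosphatase 2A and of Mdm2, passed in no genotype. Its day 4 values were 10.57, 10.85 and 11.27 in mosaic, 10.52, 10.46 and 10.62 in knockout and 10.85, 10.71 and 10.93 in wild type cultures. Its day 0 values were 11.00, 11.23 and 11.08 in mosaic, 10.82, 11.23 and 10.64 in knockout and 11.00, 11.11 and 11.01 in wild type cultures. The days overlapped in the mosaic and did not overlap in knockout and wild type cultures, although the gap was small. Changes were -0.21 ± 0.16, -0.36 ± 0.16 and -0.21 ± 0.16 on the log2 scale (adjusted p = 0.382, 0.1 and 0.32). The knockout change was -0.49 and passed without knockout day 0 replicate 3 (adjusted p = 0.0401), and was -0.20 without knockout day 0 replicate 2 (adjusted p = 0.426).

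Eda2r, which binds an isoform of ectodysplasin, had log2 values of 6.15, 6.55 and 7.02 at day 4 in mosaic cultures, against 7.74, 7.69 and 7.24 at day 0. Knockout arrays showed 6.23, 6.08 and 6.14 at day 4, against 7.35, 7.72 and 6.84 at day 0. Wild type arrays showed 6.38, 6.24 and 6.43 at day 4, against 7.62, 7.50 and 7.51 at day 0. The days did not overlap within a genotype, but mosaic day 4 replicate 3 reached above knockout day 0 replicate 3. Eda2r changed by -0.98 ± 0.21, -1.15 ± 0.21 and -1.19 ± 0.21 on the log2 scale in mosaic, knockout and wild type cultures (adjusted p = 0.00169, 0.000448 and 0.000325).

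Fas, the receptor for Fas ligand, measured 6.17, 6.09 and 6.40 at day 4 in mosaic cultures, against 6.56, 6.65 and 6.54 at day 0. In the knockout the values were 5.93, 6.0006 and 5.64 at day 4, against 6.73, 6.37 and 6.41 at day 0, and in the wild type 5.97, 5.92 and 5.85, against 6.92, 6.86 and 6.42. No day 4 array of a genotype reached its day 0 arrays. The log2 fold change was -0.36 ± 0.14 in mosaic, -0.65 ± 0.14 in knockout and -0.83 ± 0.14 in wild type cultures. It passed in knockout (adjusted p = 0.00168) and wild type cultures (adjusted p = 0.0002) and not in the mosaic (adjusted p = 0.0604). The difference between the mosaic and the wild type change, 0.46 ± 0.19, did not pass (adjusted p = 0.365). Without mosaic day 4 replicate 3 the mosaic change was -0.45 and passed (adjusted p = 0.0363).

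Trp53inp1, a p53-induced nuclear protein that also takes part in autophagy, had log2 values of 8.90, 9.02 and 8.96 at day 4 in mosaic cultures, against 9.55, 9.64 and 9.28 at day 0. Knockout arrays read 9.11, 8.72 and 8.57 at day 4, against 9.51, 9.79 and 9.22 at day 0. Wild type arrays read 8.98, 8.77 and 8.89 at day 4, against 9.68, 9.41 and 9.46 at day 0. All day 4 arrays lay below all day 0 arrays, with the narrowest gap in the knockout. Trp53inp1 changed by -0.53 ± 0.15, -0.71 ± 0.15 and -0.64 ± 0.15 on the log2 scale in mosaic, knockout and wild type cultures (adjusted p = 0.0144, 0.00175 and 0.00351). The mosaic call ended without mosaic day 0 replicate 2 (-0.45, adjusted p = 0.0673).

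Mdm2, the ligase that degrades p53, passed in the wild type alone. Its log2 values were 8.10, 8.45 and 8.20 at day 4 and 8.46, 8.39 and 8.30 at day 0 in mosaic cultures. They were 8.33, 8.05 and 8.08 at day 4 and 8.33, 8.30 and 8.28 at day 0 in knockout cultures, and 8.11, 8.10 and 8.05 at day 4 and 8.46, 8.40 and 8.27 at day 0 in wild type cultures. Days overlapped in mosaic and knockout cultures and not in the wild type. The log2 fold change was -0.13 ± 0.10, -0.15 ± 0.10 and -0.29 ± 0.10 in mosaic, knockout and wild type cultures (adjusted p = 0.401, 0.313 and 0.0311). The wild type call was lost after quantile normalization (-0.19, adjusted p = 0.105) and without any 1 of 5 of the 6 wild type arrays, which were day 0 replicate 1 (adjusted p = 0.105), day 0 replicate 2 (0.0834), day 4 replicate 1 (0.0595), day 4 replicate 2 (0.0591) and day 4 replicate 3 (0.0821). Its log2 fold change lay between -0.30 and -0.25 without these arrays.

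Bbc3, also called PUMA, is a BH3-only protein that triggers apoptosis through Bax and Bak. It measured 5.69, 5.91 and 5.71 at day 4 in mosaic cultures, against 5.68, 6.13 and 5.83 at day 0. Knockout cultures gave 5.74, 5.78 and 5.77 at day 4, against 5.75, 5.78 and 5.67 at day 0, and wild type cultures 6.40, 5.95 and 5.9965, against 5.44, 5.67 and 5.64. The 3 wild type arrays at day 4 stood above their day 0 arrays, whereas the days overlapped in mosaic and knockout cultures. Bbc3 changed by -0.11 ± 0.13 in mosaic, 0.03 ± 0.13 in knockout and 0.53 ± 0.13 in wild type cultures on the log2 scale (adjusted p = 0.596, 0.891 and 0.0036). Over 15 alternatives of the processing the wild type change ranged from 0.39 to 0.62 and passed in each (highest adjusted p = 0.0239).

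The change of Bbc3 differed from that of the wild type by -0.64 ± 0.18 in mosaic and -0.50 ± 0.18 in knockout cultures. Neither difference passed over all genes (limma's adjusted p = 0.275 and 0.444), and their 95% intervals were -1.02 to -0.27 and -0.87 to -0.13. These differences share the wild type arrays. The mosaic difference also takes in a day 0 mean that lay 0.30 above the wild type mean.

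Phlda3, a pleckstrin homology domain protein that holds back Akt, had 7.48, 7.36 and 7.59 at day 4 in mosaic cultures, against 7.34, 7.18 and 7.17 at day 0. It had 7.27, 7.37 and 7.41 at day 4 in knockout cultures, against 7.20, 7.51 and 6.99 at day 0, and 7.82, 7.66 and 7.40 in wild type cultures, against 7.14, 7.25 and 7.18. Day 4 arrays lay above day 0 arrays in the mosaic and the wild type and overlapped with them in the knockout. On the log2 scale this was a change of 0.25 ± 0.12 in mosaic, 0.11 ± 0.12 in knockout and 0.44 ± 0.12 in wild type cultures (adjusted p = 0.167, 0.567 and 0.0123). The wild type call was lost without wild type day 4 replicate 1 (0.34, adjusted p = 0.0700). The change of Phlda3 differed from that of the wild type by -0.19 ± 0.18 in mosaic and -0.32 ± 0.18 in knockout cultures. Neither difference passed (limma's adjusted p = 0.671 and 0.578).

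**Figure D2:**
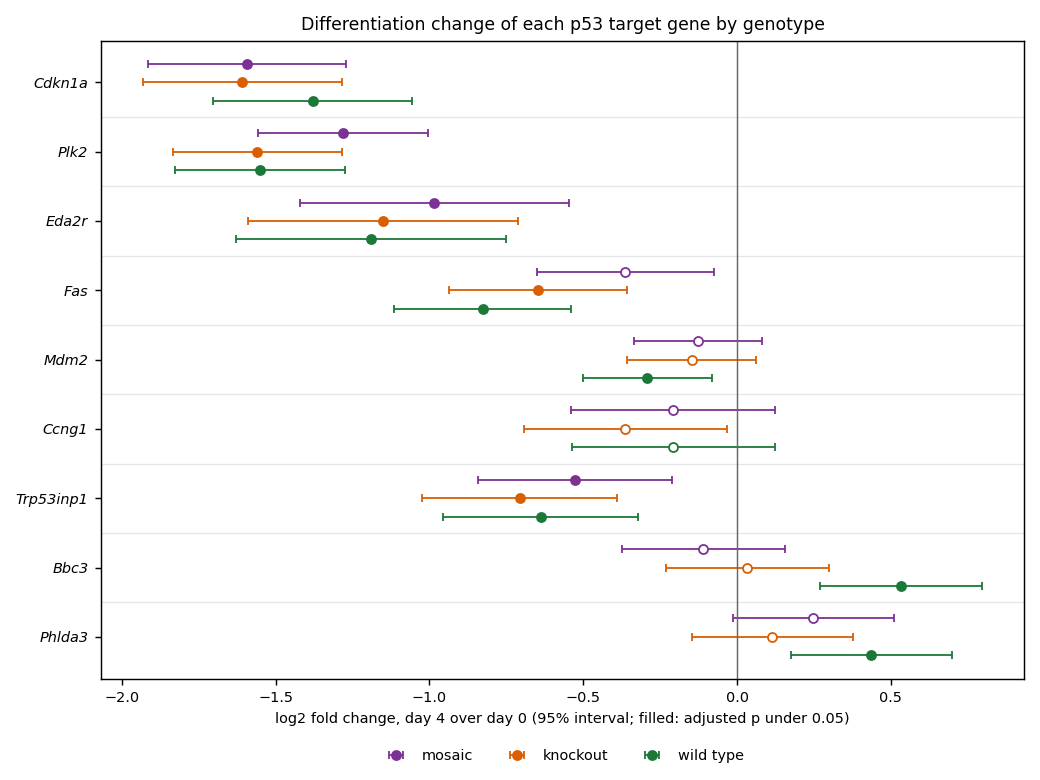
Log2 fold change of day 4 over day 0 for each p53 target gene in mosaic, knockout and wild type cultures, with 95% intervals from the limma fit and filled points at an adjusted p under 0.05. Cdkn1a, Plk2, Eda2r and Trp53inp1 are filled in each genotype, and Bbc3 and Phlda3 in the wild type alone.

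Between genotypes 0 of the 9 members passed on either day, and none of the 3 differences between differentiation responses passed for any member. Over all 19016 genes 0 passed as well (0%) in each of these 9 comparisons. At an unadjusted limma p under 0.05 there were 3 members for knockout against wild type at day 4 (12.7% of all genes), 2 for mosaic against wild type at day 4 (15.9%) and 3 for mosaic against knockout at day 4 (6.07%). At day 0 the counts were 0, 1 and 2 in the same order of comparisons (3.61%, 4.30% and 4.24% of all genes). For the differences between responses they were 1 for knockout minus wild type, 2 for mosaic minus wild type and 0 for mosaic minus knockout (9.51%, 12.4% and 4.29%).

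The widest knockout difference at day 4 was in Cdkn1a, with 7.86, 8.20 and 8.11 in knockout against 8.56, 8.35 and 8.42 in wild type arrays. All knockout arrays were lower, by a log2 difference of -0.38 ± 0.15 (95% interval -0.71 to -0.06, adjusted p = 0.323). The mosaic lay 0.0039 ± 0.15 from the wild type on the same scale (95% interval -0.32 to 0.33, adjusted p = 0.992) and 0.39 ± 0.15 from the knockout (adjusted p = 0.797). At day 0 knockout and wild type arrays overlapped in Cdkn1a, with a difference of -0.16 ± 0.15.

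Bbc3 at day 4 was lower in each mosaic and knockout array than in each wild type array. The log2 difference from the wild type was -0.35 ± 0.13 in the mosaic (95% interval -0.61 to -0.08, adjusted p = 0.223) and -0.35 ± 0.13 in the knockout (95% interval -0.62 to -0.09, adjusted p = 0.287). Mosaic and knockout arrays overlapped with each other. At day 0 the lowest mosaic array (5.679) lay just above the highest wild type array (5.670). The mosaic mean at day 0 was 0.30 ± 0.13 above the wild type mean (adjusted p = 0.999). Both comparisons with the wild type use the same 3 wild type arrays.

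For Fas at day 4 the 3 mosaic arrays lay above all knockout and wild type arrays. Its log2 difference was 0.31 ± 0.14 from the wild type (95% interval 0.02 to 0.60, adjusted p = 0.288) and 0.36 ± 0.14 from the knockout (95% interval 0.08 to 0.65, adjusted p = 0.797). Knockout and wild type arrays overlapped in Fas on both days.

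Among the remaining members, every knockout array at day 4 was below every wild type array in Eda2r (-0.20 ± 0.21) and Ccng1 (-0.30 ± 0.16), with adjusted p = 0.721 and 0.44. Plk2 was lower in each mosaic than in each knockout array at day 0 (-0.30 ± 0.13, adjusted p = 1). Trp53inp1 and Mdm2 overlapped in every genotype comparison, as did Phlda3. Their 95% intervals together spanned -0.39 to 0.48 for Trp53inp1, -0.28 to 0.38 for Mdm2 and -0.54 to 0.39 for Phlda3. For knockout against wild type at day 4 Phlda3 differed by -0.28 ± 0.12 (95% interval -0.54 to -0.02, limma's adjusted p = 0.371). These intervals leave room for modest differences, and a p above the threshold does not show that the genotypes were alike. The share of all genes whose arrays did not overlap is not given here. Groups of 3 arrays that did not differ would separate, in either direction, with a probability of 0.1. Arrays that did not overlap are therefore a description of the values and no test.

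**Figure D3:**
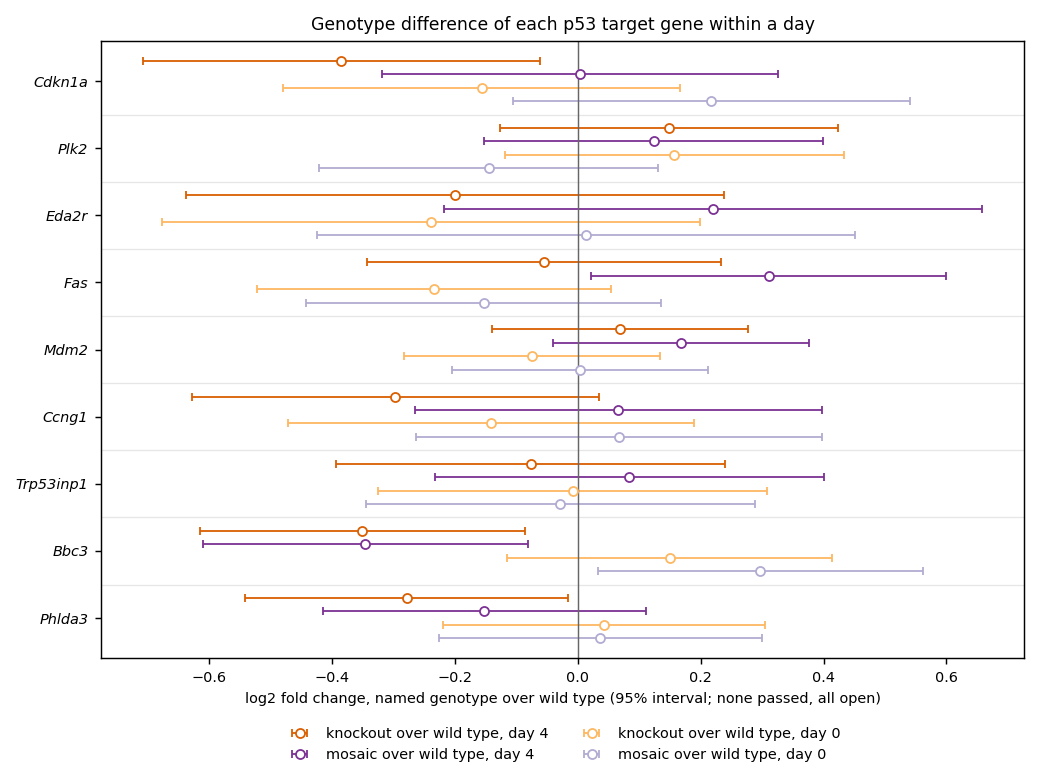
Log2 difference of knockout and of mosaic cultures from wild type cultures at day 4 (dark) and day 0 (pale) for each p53 target gene, with 95% intervals from the limma fit. All points are open because no difference passed. Intervals lie below 0 at day 4 for Cdkn1a and Phlda3 (knockout) and Bbc3 (both), and above 0 for Fas (mosaic, day 4) and Bbc3 (mosaic, day 0).

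In order of mean level at day 0, Cdkn1a was highest in the mosaic, then the wild type and then the knockout, with 10.04 ± 0.16 (SD, n = 3) in mosaic, 9.67 ± 0.33 in knockout and 9.82 ± 0.06 in wild type cultures. At day 4 Cdkn1a averaged 8.45 ± 0.25 in mosaic, 8.06 ± 0.17 in knockout and 8.44 ± 0.11 in wild type cultures. The order of Plk2 at day 0 ran the other way, with 8.93 ± 0.12 in mosaic, 9.23 ± 0.11 in knockout and 9.07 ± 0.19 in wild type cultures. The arrays of neighbours in these orders overlapped, apart from knockout and wild type at day 4 in Cdkn1a.

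Single arrays stood apart in several members at a time. In knockout cultures at day 0 replicate 3 had the lowest value in 8 of 9 members and replicate 2 the highest in 6, with ranges of 9.35 to 10.0001 in Cdkn1a, 6.84 to 7.72 in Eda2r and 10.64 to 11.23 in Ccng1. Mosaic replicate 3 at day 4 had the highest value of its group in 5 members (Cdkn1a, Eda2r, Fas, Ccng1 and Phlda3) and the lowest in Plk2. Mosaic replicate 1 at day 4 had the lowest value in 6 members. In wild type cultures at day 4 replicate 1 was highest in 6 members and replicate 2 lowest in 6. Replicate 3 of the mosaic at day 0 was lowest in 7 members. On mosaic day 4 replicate 3 Pcdh19 read 5.52, against 6.54 and 7.09 on replicates 1 and 2. The mean log2 value of 16 cell cycle genes was 6.91 on it, against 5.93 and 6.47, and that of 10 neuronal markers was 7.38, against 8.02 and 7.77. The part of either in the values of the members was not tested. Without this array the mosaic change of Eda2r was -1.21 in place of -0.98, and that of Ccng1 was -0.40 (adjusted p = 0.0615) in place of -0.21.

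**Figure D4:**
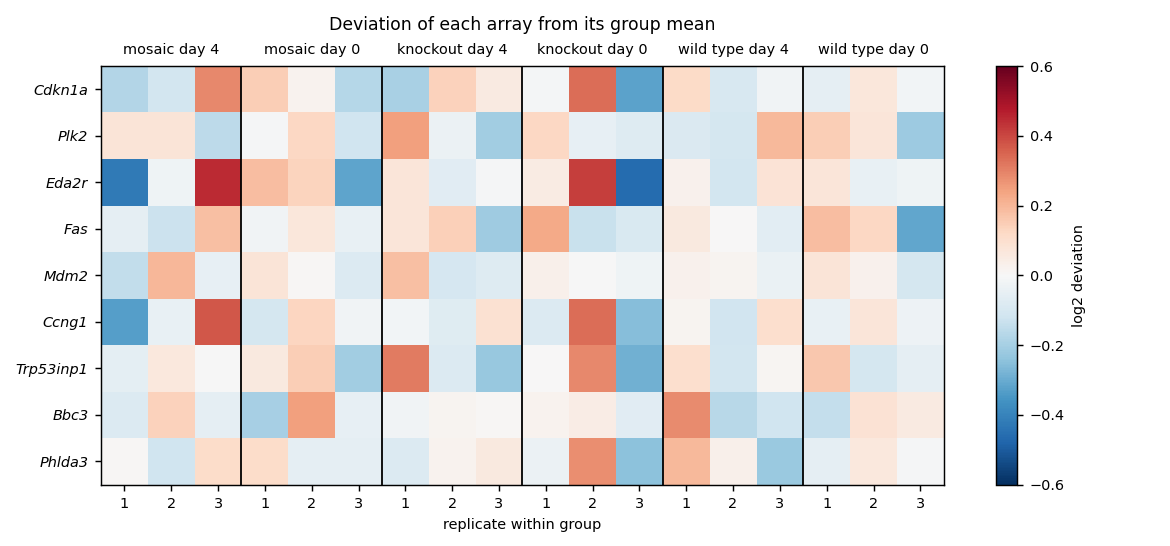
Deviation of each array from the mean of its group, in log2 units (red higher, blue lower), for the 9 p53 target genes over 18 arrays with groups separated by black lines. Knockout day 0 replicate 3 is the lowest of its group in 8 of 9 members, and mosaic day 4 replicate 3 is red in Cdkn1a, Eda2r, Fas, Ccng1 and Phlda3.

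The other genes of the p53 pathway were counted from lists chosen with earlier results of these data known, and some genes stand in several lists. The values given are log2 fold changes of day 4 over day 0, whose median standard error over all genes was 0.126. Every list count here and below stands beside the shares over all genes tested. These were 11.9% lower and 14.4% higher in mosaic, 12.4% and 15.0% in knockout, and 16.3% and 17.2% in wild type cultures. Of 25 other p53 targets tested 11 fell and 3 rose in mosaic, 10 fell and 3 rose in knockout, and 10 fell and 1 rose in wild type cultures, with medians of -0.28, -0.24 and -0.18. A total of 8 fell in all 3 genotypes and 1 rose in all 3, against 1699 and 1685 of all 19016 genes tested. Polk, a translesion DNA polymerase, changed by -0.74 in mosaic, -0.38 in knockout and -0.49 in wild type cultures. Sesn2, a stress-induced regulator of mTORC1, changed by -0.59, -0.64 and -0.50, and Apaf1, the scaffold of the apoptosome, by -0.48, -0.45 and -0.51. The epoxide hydrolase gene Ephx1 changed by -0.60, -0.52 and -0.39. The antiproliferative gene Btg2 passed in mosaic (-0.74) and wild type cultures (-0.53) and read -0.28 in the knockout. Tigar, a regulator of glycolysis, passed in mosaic (0.36) and knockout cultures (0.65) and read 0.12 in the wild type. Ei24, an endoplasmic reticulum protein, was the 1 that rose in each, by 0.43, 0.31 and 0.39. All changes of these 25 genes were smaller in size than those of Cdkn1a, Plk2 and Eda2r in the same genotype.

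Of 13 regulators of p53 tested 3 fell and 1 rose in mosaic, 2 fell and 2 rose in knockout, and 4 fell and 1 rose in wild type cultures. The shares over all genes were 11.9% and 14.4% in mosaic, 12.4% and 15.0% in knockout, and 16.3% and 17.2% in wild type cultures. The checkpoint kinase genes Chek2 and Chek1 fell in every genotype. Chek2 changed by -1.92 in mosaic, -1.83 in knockout and -1.78 in wild type cultures, and Chek1 by -0.95, -0.98 and -0.73. Hipk2, a kinase that phosphorylates p53, rose by 1.23, 1.11 and 0.92. Trp53 was not analysed here.

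Paralogs of the members did not all move with them. Cdkn1b, which encodes p27, changed by -1.04, -1.06 and -1.12 in mosaic, knockout and wild type cultures, as Cdkn1a fell, whereas Cdkn1c passed in the mosaic alone (0.38). Plk1 and Plk4, polo-like kinases of mitosis and of centriole duplication, fell in every genotype while Plk3 rose by 0.92, 0.63 and 0.75. Plk5 passed in none. Ccng2 changed by -0.41, -0.51 and -0.54, where Ccng1 did not pass. Trp53inp2 rose by 0.42, 0.37 and 0.41, where Trp53inp1 fell. Phlda1 changed by -0.53, -1.07 and -0.81, where Phlda3 did not fall. Mdm4, the partner of Mdm2, passed in the wild type (-0.64) and not in mosaic (-0.21) or knockout cultures (-0.27). Edar and Bok passed in none, and Bak1 passed in the knockout alone (0.22).

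Of 17 genes of the BCL2 family and the apoptosome tested 4 fell and 3 rose in mosaic, 4 fell and 4 rose in knockout, and 6 fell and 5 rose in wild type cultures. The BH3-only gene Bcl2l11, also called Bim, changed by -1.25, -1.47 and -1.26, and Pmaip1, also called Noxa, by -0.49, -0.57 and -0.46, while Bbc3 fell in none. Hrk, also a BH3-only gene, passed in mosaic (0.55) and knockout cultures (0.75) and read 0.25 in the wild type. The probe set with the highest mean gave changes of 0.82, 0.80 and 0.88 for Bcl2 and -0.39, -0.32 and -0.56 for Mcl1, but their other probe sets read 0.04, 0.14 and 0.28 for Bcl2 and -0.05, -0.08 and 0.11 for Mcl1. Of 11 genes of the death receptor pathway 2 fell and 2 rose in mosaic, 3 fell and 0 rose in knockout, and 2 fell and 1 rose in wild type cultures. Over all genes 11.9% fell and 14.4% rose in mosaic, 12.4% and 15.0% in knockout, and 16.3% and 17.2% in wild type cultures. Whether these small counts differ from those shares was not tested. Casp8, the caspase that Fas recruits, changed by -0.66, -0.86 and -0.66, and Cflar, which restrains it, by -0.59, -0.63 and -0.72. The ligand genes Fasl (0.57) and Eda (0.52) passed in the mosaic, and read -0.07 and 0.19 in knockout and -0.02 and 0.18 in wild type cultures. No list gene passed in any difference between genotypes or between responses.

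Genes of the cell cycle that p53 is known to repress through p21 were counted beside Cdkn1a. Of 16 tested 15 fell and 0 rose in each genotype, with medians of -1.87 in mosaic, -2.24 in knockout and -1.91 in wild type cultures. The mitotic cyclin gene Ccnb2 changed by -2.78, -2.99 and -2.73 in mosaic, knockout and wild type cultures, the checkpoint kinase gene Bub1 by -2.32, -2.71 and -2.62, and the proliferation marker Mki67 by -2.16, -2.82 and -2.46. Among 13 cyclins, kinases and inhibitors of G1, 8 fell in mosaic and 6 each in knockout and wild type cultures, and 1 rose in each. Over all genes tested 11.9% fell and 14.4% rose in mosaic, 12.4% and 15.0% in knockout, and 16.3% and 17.2% in wild type cultures. Cdkn2c changed by -1.24, -1.65 and -1.30 and Cdk6 by -0.72, -1.48 and -1.25. Of 19 immediate early genes, the class to which Plk2 also belongs, 18 fell and 1 rose in each genotype, with medians of -2.12, -2.18 and -2.23. Fos changed by -5.19, -5.43 and -5.48 and Egr1 by -4.13, -4.64 and -4.65. Myc was the 1 that rose (0.36, 0.72 and 0.52).

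**Figure D5:**
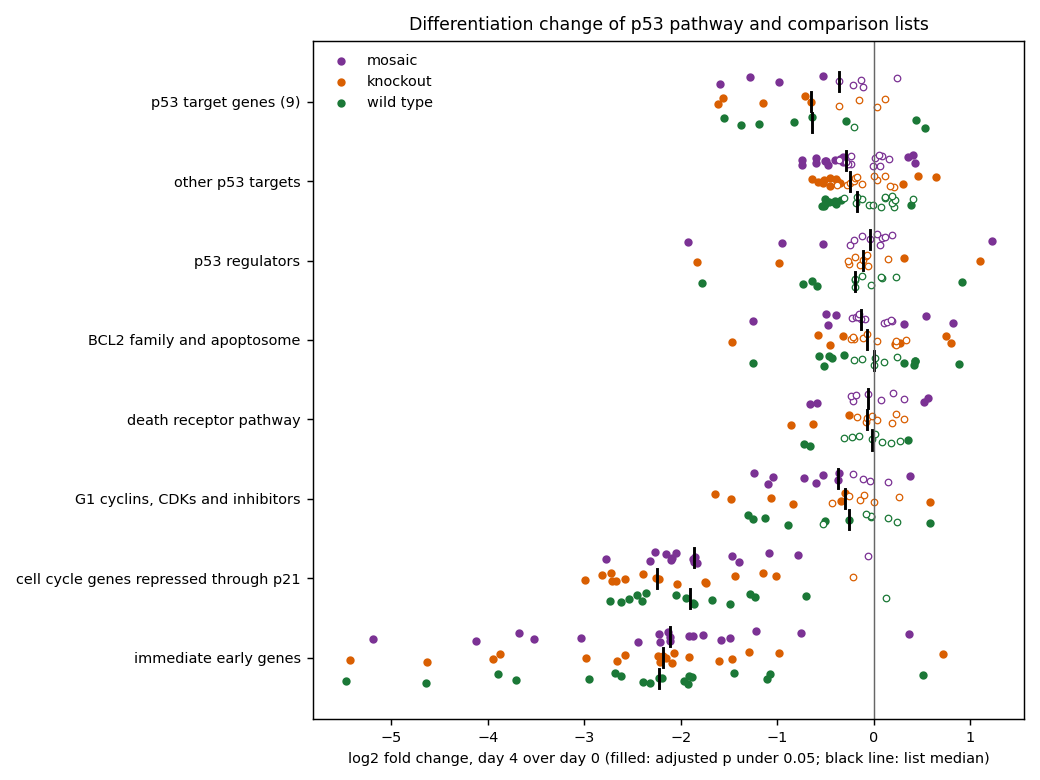
Log2 fold change of day 4 over day 0 for every tested gene of the p53 target genes and 7 comparison lists, in mosaic, knockout and wild type cultures (filled at an adjusted p under 0.05, black line at the list median). In each genotype 15 of 16 cell cycle genes and 18 of 19 immediate early genes are filled and lie below 0.

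Cell type markers moved with the days as well. The mean log2 value of 9 oligodendrocyte markers was 8.77 to 9.11 at day 4, against 5.42 to 5.66 at day 0 in mosaic cultures, 8.44 to 8.90 against 5.50 to 5.74 in knockout cultures, and 8.51 to 9.09 against 5.57 to 5.67 in wild type cultures. All 9 rose in each genotype, Mag for example by 5.50, 4.79 and 4.87. That of 9 neural stem cell markers was 9.13 to 9.25 against 9.96 to 10.14 in mosaic, 9.18 to 9.26 against 10.02 to 10.18 in knockout, and 9.14 to 9.20 against 10.05 to 10.11 in wild type cultures, and 6 of the 9 fell and 1 rose in each, Hes1 with changes of -2.28, -2.38 and -2.56 and Prom1 of 0.73, 0.57 and 0.48. Of 10 neuronal markers 7 rose in each genotype, and 1 fell in the mosaic, 0 in the knockout and 1 in the wild type. Of 8 astrocyte markers 6 rose and 2 fell in each. Of 8 oligodendrocyte progenitor markers 7 rose in each, and 1 fell in the knockout. Of 9 microglial markers tested 0 passed in the mosaic, 1 fell in the knockout and 1 rose in the wild type, and of 6 endothelial markers 0 passed in any. Of 7 pericyte and fibroblast markers 1 rose in mosaic, 1 rose and 1 fell in knockout, and 2 rose in wild type cultures. Of all genes tested 11.9% fell and 14.4% rose in mosaic, 12.4% and 15.0% in knockout, and 16.3% and 17.2% in wild type cultures. Whether the marker counts differ from those shares was not tested. No detection calls were at hand and the scale has no zero, so the absence of a cell type cannot be read from it. The part of the change in cell types in the values of the p53 targets was not tested.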

How the data were processed

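The deposited log2 values are the authors' normalized expression values, 1 per probe set and array, over 41345 probe sets. They ran from 0.72 to 13.97 with array medians of 4.85 to 4.99. No source used here gives the normalization or the log base, and base 2 is read from the range. No scanner files were used, so no background or detection call was at hand, and the number of arrays limits the precision.

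Probe sets with 1 symbol in the platform annotation (23521) were used, and the probe set with the highest mean stood for a gene that had several. Genes above the 25th percentile of an array on at least 3 arrays were tested (19016). In R 4.3.3 with limma 3.58.1, a mean for each of 6 groups was fitted to all arrays (12 residual and 4.36 prior degrees of freedom). The 12 contrasts were tested with moderated two-sided tests and Benjamini-Hochberg adjustment over all genes, after a test of the model on simulated data. Errors of fold changes are standard errors.

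The members and lists were chosen with earlier results of these data known. The text names the 10 members, their paralogs, Pcdh19, and genes among the 4 called members of another list with the largest change in at least 1 genotype, not all of which are named. Ei24, Myc and Prom1 were named after their values were seen. Promoter sequences are from RefSeq. Results were recomputed after quantile normalization or alignment of array medians, without the filter and with it at the 50th percentile, with probe sets averaged, with the replicate number as a block, with array weights, with a robust variance trend, with the compared groups alone, at an adjusted p under 0.01, and with each array left out.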

Additional observations from a re-analysis of the deposited data

How the results depend on the processing

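The count of p53 target genes that passed on differentiation ranged from 3 to 5 in the mosaic, 5 to 6 in the knockout and 6 to 8 in the wild type over 16 alternatives each, around 4, 5 and 8 as reported. Over all genes the counts ranged from 3344 to 5320, 3510 to 5577 and 4046 to 7016 in the same order. Between genotypes and between responses 0 members passed under any alternative. With the replicate number as a block the counts were 4, 5 and 8. Whether the numbers pair the arrays was not settled. Deviations of same-numbered arrays correlated above 0.1 in 4 of 45 pairs. Between the days of a genotype each array correlated best with its own number, at an r of 0.015 to 0.164. Own-numbered arrays correlated best in 47 of 90 combinations of an array with another group, and 0 of 18 arrays correlated best with their own number in every other group. The block changed no call of a member. It gave each replicate number a shift shared by all genotypes and days. Pairs within a genotype were not fitted, so their effect on the calls is not known. The changes of Cdkn1a, Plk2 and Eda2r passed in each genotype under each of the 15 alternatives run on single genes. With 1 array left out, 7 calls of single members were lost and 2 gained, and under the other settings at the same threshold 1 was lost and 3 were gained. At an adjusted p under 0.01 the counts were 3 in the mosaic, 5 in the knockout and 6 in the wild type, where 3344, 3510 and 4046 of all genes passed. The gains were Fas in the mosaic (filter at the 50th percentile, variance trend, array weights, and without mosaic day 4 replicate 3) and Ccng1 in the knockout. Called values moved by at most 1.36 times without an array, and no called value changed sign. Over all genes, 262 passed for mosaic against wild type at day 4 without mosaic day 4 replicate 1, in place of 0, and at most 10 in the other genotype comparisons. The share of calls that were higher was 54.7% in mosaic, 54.6% in knockout and 51.4% in wild type cultures. It was 56.9%, 57.7% and 61.5% after quantile normalization, and 62.7%, 59.3% and 44.7% with array medians aligned, so in the wild type the balance turned. The cause was not tested. With 3 technical replicates a group, the median standard error was 0.126 between groups and 0.178 between responses.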
